A study of Homo sapiens with 12 samples.

Results

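The genes described here encode the cytosolic ribosomal proteins. They were chosen by name, as the gene symbols made of RPL or RPS and a number (with A, X or L after it where present), RPLP0, RPLP1, RPLP2 and RPSA, that had at least 10 counts in at least 4 libraries. Of the 57773 genes in the count table, 83 carried such a symbol and 78 passed the count rule. These were 31 genes of the small subunit, 44 of the large subunit and the 3 genes of the ribosomal stalk. All 78 were also among the 17532 genes tested. The 5 symbols that did not pass had at most 6 counts in any library, and included RPL10L with no count in any library, RPL3L with at most 3 and RPS10L with at most 6.

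The cells were A549, a line established from a human lung adenocarcinoma. They were reverse transfected with siRNA at 50 nM and harvested after 72 h. The groups were siGOLM1-1 and siGOLM1-2, 2 siRNAs against GOLM1, which encodes a Golgi membrane protein, and a control siRNA labelled non-targeting, with 4 libraries in each of the 3 groups. The labels call these biological replicates. All came from 1 cell line, and the knockdown was transient.

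The cytosolic ribosome consists of a small subunit, which holds the mRNA and decodes it, and a large subunit, which joins the amino acids and passes the growing chain through its exit tunnel. Its proteins are needed in nearly equal copy number, and those not built into a ribosome are degraded. Many of the mRNAs begin with a C followed by a run of pyrimidines, the 5′ terminal oligopyrimidine (TOP) tract, through which mTOR and LARP1 control their translation and stability. TOP regulation acts largely on translation, which RNA levels do not show.

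To show this tract beside the values, the 15 bases on either side of a transcription start are given here for 12 genes that the results turn on. They are from RefSeq on build GRCh38.p14, 5′ to 3′, with the start at base 16 and the tract (a C at the start and at least 4 pyrimidines after it) in capitals. For genes without a tract at a listed start, nothing is in capitals. Where several starts are listed, the one with the longest tract is shown.
RPS27, chr1:153990747-153990776, plus strand: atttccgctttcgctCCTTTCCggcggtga
RPS10, chr6:34426055-34426084, minus strand: ccgcgcatgctccttCCTTTCCagccccgg
RPS13, chr11:17077653-17077682, minus strand: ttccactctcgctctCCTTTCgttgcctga
RPL28, chr19:55385917-55385946, plus strand: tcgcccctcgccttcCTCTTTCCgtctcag
RPL36A, chrX:101390996-101391025, plus strand: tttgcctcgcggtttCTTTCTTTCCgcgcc
RPL39, chrX:119791616-119791645, minus strand: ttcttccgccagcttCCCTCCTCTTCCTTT
RPLP0, chr12:120201097-120201126, minus strand: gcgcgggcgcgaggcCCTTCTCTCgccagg
RPS27L, chr15:63157463-63157492, minus strand: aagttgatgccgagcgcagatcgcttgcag
RPL3, chr22:39319609-39319638, minus strand: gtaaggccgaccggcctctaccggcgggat
RPL10A, chr6:35468386-35468415, plus strand: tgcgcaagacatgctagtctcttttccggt
RPL4, chr15:66504841-66504870, minus strand: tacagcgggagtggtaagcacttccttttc
RPS29, chr14:49598696-49598725, minus strand: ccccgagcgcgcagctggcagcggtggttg
RPS27 carries a tract at its listed start and its paralog RPS27L does not. Such a tract stood at a listed start of 46 of the 63 ribosomal protein genes in the promoter table (73.0%), against 5.14% of all 27305 genes there. The table lists no start for the remaining 15. When the tract could begin within 5 bases of a listed start, 53 of the 63 genes had one (84.1%), against 25.2% of all genes there. A gene without a tract at its listed start may thus have one a few bases away. These shares say only which letters stand at or near a listed start.

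GOLM1 was measured at 37.5 to 38.9 CPM (counts scaled to a common library size with TMM factors) in the siGOLM1-1 libraries, 44.6 to 53.4 CPM in the siGOLM1-2 libraries and 345 to 378 CPM in the control libraries. Its log2 fold change against control was -3.25 ± 0.07 (SE) for siGOLM1-1, with an adjusted p of 4.97e-12 from edgeR, and -2.95 ± 0.07 for siGOLM1-2, with an adjusted p of 1.57e-11. Total counts per library ran from 41.6 M to 71.3 M. The line's epithelial markers were present, with KRT8 at 1636 to 4438 CPM, KRT18 at 826 to 2146 CPM and EPCAM at 3.02 to 6.28 CPM, while PTPRC, CD3E, HBB, COL1A2 and DCN reached at most 6 counts in a library. Of other cell type markers, CD14 was at 6.70 to 15.2 CPM and COL1A1 at 21.3 to 92.8 CPM. The summed level of 5 leukocyte markers was 9.52 to 16.3 CPM with siGOLM1-1, 10.9 to 12.9 CPM with siGOLM1-2 and 6.78 to 7.37 CPM in the control, that of 5 fibroblast markers 48.5 to 93.5, 24.3 to 32.8 and 33.0 to 72.6 CPM, and that of 8 epithelial markers 5961 to 7024, 10097 to 10570.2 and 8352 to 10061 CPM. The 2 endothelial markers analysed, VWF and CDH5, summed to 1.11 to 1.97, 0.576 to 0.979 and 0.242 to 0.640 CPM, and 3 haemoglobin genes to at most 0.139 CPM. The part of these cell markers in the results was not tested.

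Some libraries stood apart in these genes. In the siGOLM1-1 group, replicate 2 was the highest of the 4 libraries for 75 of the 78 genes. In the siGOLM1-2 group, replicate 4 was the highest for 75 of 78. Among the controls, replicate 3 or 4 was the highest for 38 and 35 genes, and replicate 2 the lowest for 52. Controls 1 and 2 differed from controls 3 and 4 by a median log2 difference of -0.22 over the 78 genes, whereas over all genes tested the median difference was 0.0045. The 78 genes were thus shifted between the pairs of controls more than genes at large. None of the 78 was past 0.5 in either direction. Of all genes tested, which include genes of low count, 15.6% were past 0.5.

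Taken as a whole, the ribosomal protein transcripts were close in level in the 3 groups. They made up 5.41, 6.72, 5.24 and 5.76% of all counts in the siGOLM1-1 libraries, 5.66, 5.73, 5.47 and 6.72% in the siGOLM1-2 libraries and 5.43, 5.17, 6.02 and 6.02% in the control libraries. The means were 5.78 ± 0.66%, 5.89 ± 0.56% and 5.66 ± 0.43% (SD, n = 4 each), and the 3 ranges overlapped. These are shares of sequenced RNA from bulk cells, so fewer cells of a type and less RNA per cell cannot be told apart. Mitochondrial transcripts took 4.10 ± 0.70% of counts with siGOLM1-1, 6.01 ± 1.14% with siGOLM1-2 and 6.28 ± 1.31% in the control. With these left out of the total, the mean shares of the ribosomal protein transcripts were 6.03, 6.27 and 6.03%. Of 845 symbols of ribosomal protein pseudogenes, 377 had any count, and together they held 0.0264% of counts with siGOLM1-1, 0.0260% with siGOLM1-2 and 0.0252% in the control.

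Single genes were compared with edgeR's quasi-likelihood test in 1 fit of all genes tested. Genes with an adjusted p (Benjamini-Hochberg) below 0.05 were called. With siGOLM1-1 against control, 7 of the 78 genes were higher and 10 lower. That is 21.8% called, whereas 47.5% of all genes tested were called (23.7% higher and 23.8% lower). With siGOLM1-2 against control, 6 genes were higher and 9 lower, which is 19.2%, against a background of 45.0% called (21.8% higher and 23.2% lower). With siGOLM1-1 against siGOLM1-2, 16 were higher and 9 lower, 32.1% against a background of 54.4% (27.9% higher and 26.5% lower). The 4 libraries of each group did not overlap for 10, 12 and 12 of the 78 genes in these comparisons, whereas 41.0%, 45.9% and 48.4% of all genes tested did not overlap. Of the 78 genes, 45 were called in no comparison, and their log2 fold changes lay between -0.25 and 0.29, -0.21 and 0.24, and -0.21 and 0.31.

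The differences were mostly small. The median log2 fold change over the 78 genes was 0.06 with siGOLM1-1 against control, -0.02 with siGOLM1-2 against control and 0.03 with siGOLM1-1 against siGOLM1-2, and over all genes tested it was -0.01, -0.01 and 0.01. The median size of the log2 fold change, without its sign, was 0.108, 0.109 and 0.173 over the 78 genes, against 0.350, 0.328 and 0.404 over all genes tested. The median standard errors were closer, at 0.113 over the 78 genes and 0.131 over all genes tested with siGOLM1-1 against control. Within 0.5 on the log2 scale lay 74, 76 and 72 of the 78 genes, and 63.6%, 66.5% and 58.4% of all genes tested. Of the genes not called, 59 of 61, 60 of 63 and 50 of 53 had a 95% interval of the log2 fold change inside -0.5 and 0.5.

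**Figure D1:**
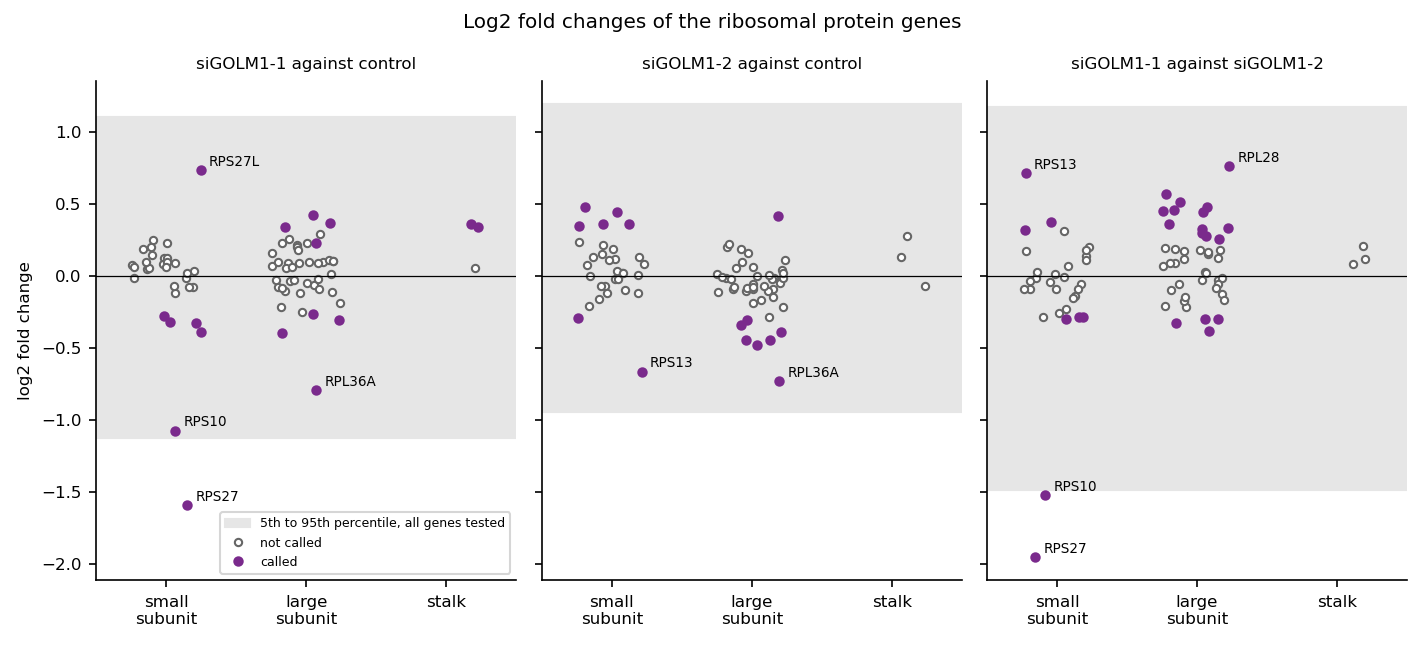
Log2 fold change of each of the 78 ribosomal protein genes (vertical axis) by subunit, in the 3 comparisons; filled points were called at an adjusted p under 0.05, and the grey band runs from the 5th to the 95th percentile of all 17532 genes tested. Within 0.5 on the log2 scale lie 74, 76 and 72 of the 78 points, and RPS27 and RPS10 lie furthest below 0 in the comparisons that include siGOLM1-1.

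The counts of called genes depended on which libraries entered. Against controls 1 and 2 alone, siGOLM1-1 gave 13 genes higher and 3 lower, and against controls 3 and 4 alone 1 higher and 10 lower. With siGOLM1-2 the counts were 7 higher and 5 lower against the first pair, and 3 higher and 9 lower against the other. Without siGOLM1-1 replicate 2, siGOLM1-1 against control gave 3 higher and 13 lower. Without siGOLM1-1 replicate 1 it gave 11 and 6, and without siGOLM1-1 replicate 3 it gave 7 and 5. Leaving out control replicate 1, 2, 3 or 4 gave 4, 4, 9 or 8 higher and 9, 10, 6 or 5 lower. For siGOLM1-1 against siGOLM1-2, leaving out siGOLM1-2 replicate 3 gave 10 higher and 5 lower. Leaving out siGOLM1-1 replicate 2 gave 12 and 16, and leaving out siGOLM1-2 replicate 4 gave 22 and 4. Without siGOLM1-1 replicate 1, 3 or 4 the lower genes were 3, 3 or 4, and without siGOLM1-2 replicate 2 they were 4. Scaled by library totals alone, siGOLM1-1 against siGOLM1-2 gave 9 higher and 19 lower, and siGOLM1-2 against control gave 11 higher and 6 lower. Scaled on the ribosomal protein genes alone, siGOLM1-1 against siGOLM1-2 gave 14 higher and 17 lower. The genes described next are therefore given with what ended their call, be it a left-out library, a pair of controls, a scaling or another fit.

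RPS27, a zinc-finger protein of the small subunit, had the largest differences of the 78 genes in both comparisons that include siGOLM1-1. It was measured at 180.0, 221, 161 and 188 CPM in the siGOLM1-1 libraries, 719, 688, 694 and 811 CPM in the siGOLM1-2 libraries and 552, 507, 591 and 615 CPM in the control libraries. All 4 siGOLM1-1 libraries lay below every other library, and the siGOLM1-2 libraries lay above the controls. RPS27 fell with siGOLM1-1 against control (log2 fold change -1.59 with an SE of 0.10 and adjusted p = 4.94e-08), which is 3.02-fold less, and rose with siGOLM1-2 (log2 fold change 0.36 with an SE of 0.10 and adjusted p = 0.00877). It was lower with siGOLM1-1 than with siGOLM1-2 (log2 fold change -1.96 with an SE of 0.10 and adjusted p = 5.26e-09). The fall and the difference between the siRNAs kept their call under every alternative run, and the rise with siGOLM1-2 was lost against controls 3 and 4 alone (0.29, adjusted p = 0.0674). RPS27 had 7948 to 40783 counts per library.

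RPS27L, the paralog of RPS27, is a p53 target in human cells and can take its place in the small subunit. Its level was 318, 395, 305 and 307 CPM in the siGOLM1-1 libraries, 239.6, 253, 227 and 302 CPM in the siGOLM1-2 libraries and 232, 211, 178 and 173 CPM in the control libraries. The siGOLM1-1 libraries lay above all others, and the lowest siGOLM1-2 library lay just below the highest control. RPS27L rose with siGOLM1-1 (log2 fold change 0.74 with an SE of 0.12 and adjusted p = 1.96e-04) and with siGOLM1-2 (log2 fold change 0.36 with an SE of 0.12 and adjusted p = 0.0231), the only gene of the 78 called higher with both in this fit. The rise with siGOLM1-1 kept its call under every alternative run. The rise with siGOLM1-2 was lost without control replicate 3 (0.31, adjusted p = 0.0699), without control replicate 4 (0.30, adjusted p = 0.0723), without siGOLM1-2 replicate 4 (0.27, adjusted p = 0.0751), against controls 1 and 2 alone (0.20, adjusted p = 0.246) and with scaling on the ribosomal protein genes alone (0.34, adjusted p = 0.0677). As a ratio of counts, not corrected for length, RPS27 over RPS27L was 0.567 ± 0.035 with siGOLM1-1, 2.87 ± 0.19 with siGOLM1-2 and 2.91 ± 0.61 in the control (SD, n = 4 each). The siGOLM1-1 ratios, 0.528 to 0.612, lay apart from those of siGOLM1-2, 2.69 to 3.06, and of the control, 2.38 to 3.56, which overlapped.

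RPS10, a protein of the small subunit's head, followed the direction of RPS27 at low counts. It was measured at 1.65, 1.51, 1.28 and 1.27 CPM in the siGOLM1-1 libraries, 4.04, 4.06, 3.72 and 4.63 CPM in the siGOLM1-2 libraries and 3.32, 2.91, 2.73 and 3.10 CPM in the control libraries, and the 3 groups did not overlap. RPS10 fell with siGOLM1-1 (log2 fold change -1.07 with an SE of 0.14 and adjusted p = 2.49e-05) and was lower with siGOLM1-1 than with siGOLM1-2 (log2 fold change -1.52 with an SE of 0.14 and adjusted p = 6.52e-07), calls kept under every alternative run. It rose with siGOLM1-2 (log2 fold change 0.45 with an SE of 0.13 and adjusted p = 0.0129), a call lost against controls 1 and 2 alone (0.40, adjusted p = 0.083) and with scaling on the ribosomal protein genes alone (0.44, adjusted p = 0.0522). RPS10 had only 60 to 240 counts per library. It overlaps the readthrough gene RPS10-NUDT3, which had no count in any library, and how reads in overlapping genes were assigned is not given in the sources used here. The values of RPS10 are uncertain for that reason. Its neighbour NUDT3, which encodes a phosphohydrolase, rose with siGOLM1-1 (log2 fold change 0.47 with an SE of 0.07 and adjusted p = 5.14e-05) and was not called with siGOLM1-2 (log2 fold change -0.04).

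**Figure D2:**
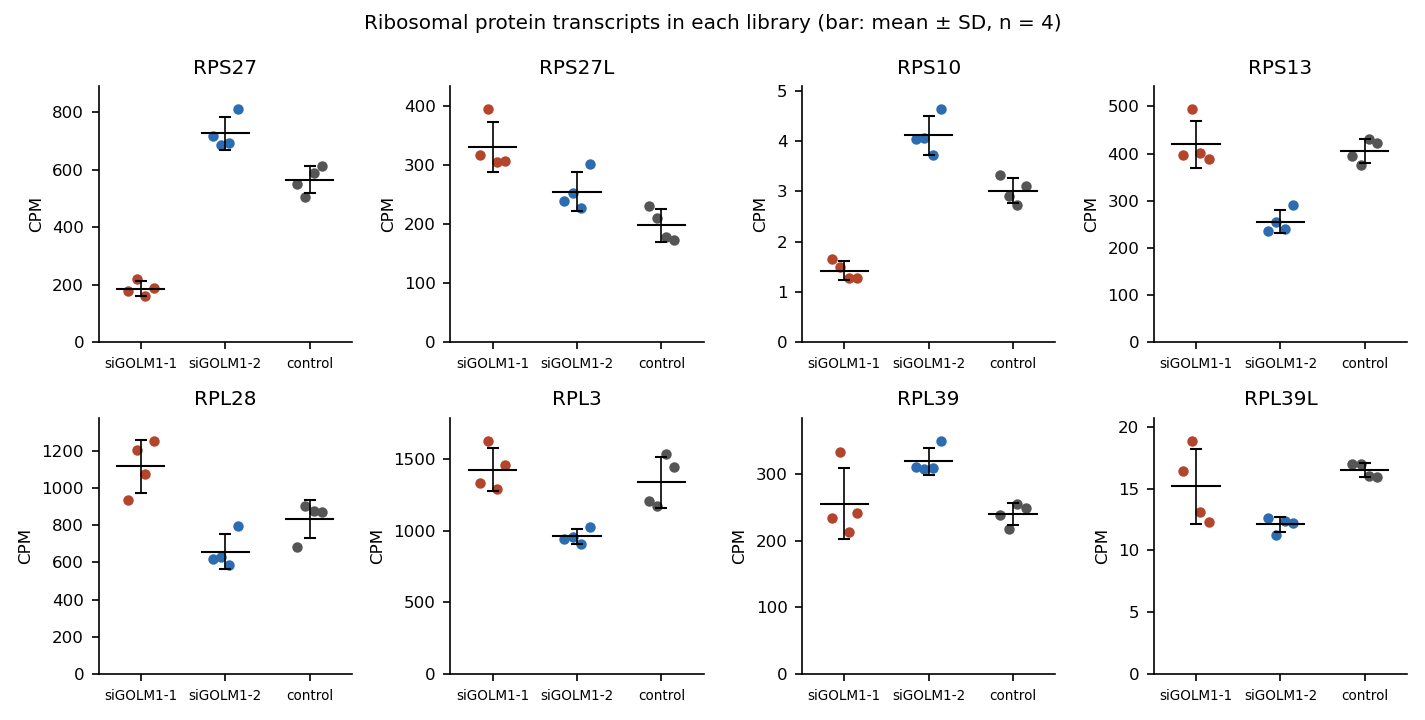
CPM (vertical axis, from 0) of 8 ribosomal protein genes in each of the 12 libraries, with the mean and SD of the 4 libraries of a group. RPS27 lies at 161 to 221 CPM in the siGOLM1-1 libraries, below all others, and RPS13 lies at 237 to 292 CPM in the siGOLM1-2 libraries, below all others.

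RPS13 is a core protein of the small subunit. The gene stood at 396, 494, 400.3 and 388 CPM in the siGOLM1-1 libraries, 237, 256, 239.9 and 292 CPM in the siGOLM1-2 libraries and 395, 376, 430.1 and 422 CPM in the control libraries. Only the siGOLM1-2 libraries lay apart, below all 8 others. RPS13 fell with siGOLM1-2 against control (log2 fold change -0.66 with an SE of 0.09 and adjusted p = 7.37e-05) and was higher with siGOLM1-1 than with siGOLM1-2 (log2 fold change 0.71 with an SE of 0.09 and adjusted p = 2.28e-05), and both calls were kept under every alternative run. With siGOLM1-1 against control it was not called (log2 fold change 0.05, 95% interval -0.15 to 0.25).

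RPS29, a small zinc-binding protein of the small subunit, was measured at 210.3, 287, 197 and 221 CPM in the siGOLM1-1 libraries, 262, 267, 275 and 314 CPM in the siGOLM1-2 libraries and 187, 184, 197 and 234 CPM in the control libraries. Every siGOLM1-2 library lay above every control. RPS29 rose with siGOLM1-2 (log2 fold change 0.48 with an SE of 0.12 and adjusted p = 0.00423), and the call was kept under every alternative run. RPS21, another small protein of this subunit, was measured at 250.1, 368, 232 and 249.9 CPM in the siGOLM1-1 libraries, 319, 325, 312 and 388 CPM in the siGOLM1-2 libraries and 255, 242, 275 and 286 CPM in the control libraries. It rose with siGOLM1-2 (log2 fold change 0.35 with an SE of 0.13 and adjusted p = 0.0425), but 3 controls (replicates 1, 2 and 3) and siGOLM1-2 replicates 1, 2 and 4 each ended the call when left out, with adjusted p between 0.0577 and 0.122. It was also lost against controls 1 and 2 alone (0.43, adjusted p = 0.0551) and against controls 3 and 4 alone (0.28, adjusted p = 0.193).

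RPS26, which lies at the mRNA exit of the small subunit, was measured at 152, 189, 146 and 157 CPM in the siGOLM1-1 libraries, 180.4, 184, 175 and 215 CPM in the siGOLM1-2 libraries and 189.8, 191, 235 and 228 CPM in the control libraries. All siGOLM1-1 libraries lay below the controls, although replicate 2 did so by little. RPS26 fell with siGOLM1-1 (log2 fold change -0.39 with an SE of 0.10 and adjusted p = 0.00676), a call lost against controls 1 and 2 alone (-0.24, adjusted p = 0.109). RPS25, which takes part in internal initiation, also fell with siGOLM1-1 (log2 fold change -0.32 with an SE of 0.09 and adjusted p = 0.0109), a call lost against the same pair (-0.22, adjusted p = 0.124).

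RPS6, the substrate of S6 kinase downstream of mTOR, was measured at 1206, 1521, 1084 and 1189 CPM in the siGOLM1-1 libraries, 1433, 1513, 1466 and 1668 CPM in the siGOLM1-2 libraries and 1462, 1362, 1618 and 1623 CPM in the control libraries. The groups overlapped. It was called lower with siGOLM1-1 (log2 fold change -0.28 with an SE of 0.11 and adjusted p = 0.0428), but this call held under only 12 of 24 alternatives. Leaving out control replicate 1, 3 or 4, siGOLM1-1 replicate 1, 3 or 4 or siGOLM1-2 replicate 1, 2 or 3 each ended it, at adjusted p up to 0.13. So did controls 1 and 2 alone (-0.17, adjusted p = 0.283), the replicate number as a block (-0.28, adjusted p = 0.0533) and a fit of both groups without siGOLM1-2 (-0.28, adjusted p = 0.071). RPSA, the laminin receptor protein of the small subunit, was measured at 1159.6, 1704, 1183 and 1284 CPM in the siGOLM1-1 libraries, 1322, 1365, 1293 and 1703 CPM in the siGOLM1-2 libraries and 1205, 1103, 1447 and 1346 CPM in the control libraries and was called in no comparison. RPS27A, a fusion of ubiquitin with a small subunit protein, was measured at 799, 937, 739.8 and 798 CPM in the siGOLM1-1 libraries, 701, 722, 669 and 808 CPM in the siGOLM1-2 libraries and 847, 791, 939.7 and 969 CPM in the control libraries. It was called lower with siGOLM1-2 (log2 fold change -0.29 with an SE of 0.09 and adjusted p = 0.0224). Leaving out control replicate 3 or 4 or siGOLM1-2 replicate 1, 2 or 3 ended that call, at adjusted p up to 0.0677. It was also lost against controls 1 and 2 alone (-0.18, adjusted p = 0.216) and with scaling by library totals (-0.21, adjusted p = 0.0536).

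In the small subunit as a whole, 1 gene was higher and 6 lower with siGOLM1-1 against control, 5 higher and 2 lower with siGOLM1-2 against control, and 3 higher and 5 lower with siGOLM1-1 against siGOLM1-2, of 31. In the large subunit the counts were 4 higher and 4 lower, 1 higher and 7 lower, and 13 higher and 4 lower, of 44. The shares called were 22.6%, 22.6% and 25.8% in the small subunit and 18.2%, 18.2% and 38.6% in the large subunit, all below the 47.5%, 45.0% and 54.4% of all genes tested. The summed counts of the small subunit were divided by those of the large subunit and the 3 stalk genes together. This ratio came to 0.600 ± 0.011 with siGOLM1-1, 0.699 ± 0.003 with siGOLM1-2 and 0.653 ± 0.008 in the control (SD, n = 4 each). The 3 ranges, 0.590 to 0.613, 0.694 to 0.702 and 0.647 to 0.664, did not overlap. With RPS27 and RPS10 left out the ranges were 0.585 to 0.608, 0.673 to 0.679 and 0.631 to 0.646, still without overlap. This ratio does not depend on how libraries are scaled. It was examined after its values were seen, and no test was made of it.

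RPL28, a protein of the large subunit, was the gene called higher with siGOLM1-1 and lower with siGOLM1-2. RPL28 was found at 934, 1204, 1074 and 1254 CPM in the siGOLM1-1 libraries, 618, 627, 587 and 795 CPM in the siGOLM1-2 libraries and 684, 904, 874 and 870.2 CPM in the control libraries. The siGOLM1-1 libraries lay above all others, while siGOLM1-2 replicate 4 lay within the control range. RPL28 was higher with siGOLM1-1 than with siGOLM1-2 (log2 fold change 0.77 with an SE of 0.12 and adjusted p = 1.38e-04), and this call was kept under every alternative run. Against control, it rose with siGOLM1-1 (log2 fold change 0.42 with an SE of 0.12 and adjusted p = 0.0117), a call lost against controls 3 and 4 alone (0.37, adjusted p = 0.0505). It was called lower with siGOLM1-2 (log2 fold change -0.34 with an SE of 0.12 and adjusted p = 0.0349), but leaving out control replicate 2, 3 or 4 or siGOLM1-2 replicate 1, 2 or 3 ended that call, at adjusted p between 0.0736 and 0.11. It was also lost against controls 1 and 2 alone (-0.28, adjusted p = 0.179) and with scaling by library totals (-0.27, adjusted p = 0.0639).

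RPL3, RPL10A and RPL4 were lower with siGOLM1-2. RPL3, whose loop reaches the peptidyl transferase centre, was measured at 1329.8, 1626, 1287 and 1455 CPM in the siGOLM1-1 libraries, 944, 958, 906 and 1025 CPM in the siGOLM1-2 libraries and 1205, 1171, 1531 and 1442 CPM in the control libraries. It fell with siGOLM1-2 against control (log2 fold change -0.48 with an SE of 0.10 and adjusted p = 0.00184). RPL10A, the protein of the mobile L1 stalk, was measured at 474, 601, 463 and 498 CPM in the siGOLM1-1 libraries, 348, 354, 339 and 383 CPM in the siGOLM1-2 libraries and 452, 441, 518 and 525 CPM in the control libraries. It fell as well (log2 fold change -0.44 with an SE of 0.09 and adjusted p = 0.00155), and in both genes every siGOLM1-2 library lay below every other library. RPL4, which lines the exit tunnel, was measured at 2634, 3145, 2673 and 2739 CPM in the siGOLM1-1 libraries, 1885, 1967, 1857 and 2299.8 CPM in the siGOLM1-2 libraries and 2494, 2418, 2879 and 2692 CPM in the control libraries, and fell with siGOLM1-2 (log2 fold change -0.39 with an SE of 0.10 and adjusted p = 0.0048). The calls of RPL3 and RPL10A were kept under every alternative run, and that of RPL4 was lost against controls 1 and 2 alone (-0.30, adjusted p = 0.0508). None of the 3 was called with siGOLM1-1 against control (log2 fold changes 0.09, 0.07 and 0.09). All 3 were higher with siGOLM1-1 than with siGOLM1-2 under every alternative run (log2 fold changes 0.57, 0.52 and 0.48, adjusted p = 3.56e-04, 3.49e-04 and 7.82e-04).

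RPL15, a core protein of the large subunit, was measured at 1088, 1407, 1165 and 1191 CPM in the siGOLM1-1 libraries, 832, 851, 830.4 and 1008 CPM in the siGOLM1-2 libraries and 857, 848, 1047 and 998 CPM in the control libraries. The siGOLM1-1 libraries lay above all others. It rose with siGOLM1-1 (log2 fold change 0.37 with an SE of 0.10 and adjusted p = 0.00936), a call lost against controls 3 and 4 alone (0.26, adjusted p = 0.0957), and was higher with siGOLM1-1 than with siGOLM1-2 under every alternative run (log2 fold change 0.46 with an SE of 0.10 and adjusted p = 0.00189). RPL10, which completes the large subunit late in its assembly, was measured at 1393, 1791, 1490.2 and 1676 CPM in the siGOLM1-1 libraries, 1135, 1128, 1056 and 1325 CPM in the siGOLM1-2 libraries and 1180.2, 1185, 1510.4 and 1426 CPM in the control libraries. It was called in the comparison of the siRNAs alone (log2 fold change 0.45 with an SE of 0.11 and adjusted p = 0.00353), and that call was kept under every alternative run.

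RPL39 and its paralog RPL39L moved in opposite directions with siGOLM1-2. RPL39, a short protein in the wall of the exit tunnel, was measured at 234, 333, 212 and 242 CPM in the siGOLM1-1 libraries, 310.3, 308, 309 and 349.9 CPM in the siGOLM1-2 libraries and 238, 217, 255 and 248 CPM in the control libraries. RPL39L, known mainly for its expression in testis and in tumour cells, was measured at 16.4, 18.9, 13.1 and 12.3 CPM in the siGOLM1-1 libraries, 12.7, 11.2, 12.4 and 12.2 CPM in the siGOLM1-2 libraries and 17.0, 17.0, 16.1 and 16.0 CPM in the control libraries. For RPL39 every siGOLM1-2 library lay above every control, and for RPL39L every siGOLM1-2 library lay below every control. RPL39 rose (log2 fold change 0.41 with an SE of 0.12 and adjusted p = 0.0104) and RPL39L fell (log2 fold change -0.45 with an SE of 0.12 and adjusted p = 0.00718), and against controls 3 and 4 alone both calls were lost (RPL39 0.36, adjusted p = 0.0648; RPL39L -0.39, adjusted p = 0.055). With siGOLM1-1 neither was called (log2 fold changes 0.09 and -0.12). The ratio of RPL39 counts to RPL39L counts was 16.9 ± 2.3 with siGOLM1-1, 26.4 ± 2.0 with siGOLM1-2 and 14.5 ± 1.4 in the control (SD, n = 4 each). The siGOLM1-2 ratios, 24.5 to 28.6, lay above those of the control, 12.8 to 15.8.

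RPL36A, a protein at the exit site of tRNA, was the 1 gene of the 78 called lower with both siRNAs. RPL36A stood at 3.93, 1.77, 3.69 and 3.45 CPM in the siGOLM1-1 libraries, 3.45, 3.18, 4.29 and 2.47 CPM in the siGOLM1-2 libraries and 5.68, 5.96, 5.36 and 5.25 CPM in the control libraries. All 8 knockdown libraries lay below all 4 controls. It fell with siGOLM1-1 (log2 fold change -0.79 with an SE of 0.22 and adjusted p = 0.00836) and with siGOLM1-2 (log2 fold change -0.73 with an SE of 0.22 and adjusted p = 0.0137). Both calls were lost against controls 3 and 4 alone (-0.71, adjusted p = 0.0525, and -0.65, adjusted p = 0.0758) and with scaling on the ribosomal protein genes alone (adjusted p = 0.0511 and 0.0809). RPL36A had 94 to 284 counts per library. The readthrough gene RPL36A-HNRNPH2, which overlaps it, had none, so the values carry the same uncertainty as those of RPS10. Its paralog RPL36AL, outside the name rule, had 6333 to 13684 counts per library. RPL36AL rose with siGOLM1-1 (log2 fold change 0.41 with an SE of 0.10 and adjusted p = 0.00366) and was not called with siGOLM1-2 (log2 fold change -0.16). HNRNPH2, the neighbour of RPL36A, rose with siGOLM1-1 (log2 fold change 0.36 with an SE of 0.06 and adjusted p = 2.19e-04) and fell with siGOLM1-2 (log2 fold change -0.33 with an SE of 0.06 and adjusted p = 5.32e-04).

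RPL17, at the mouth of the exit tunnel, was also low in counts, from 192 per library, and overlaps the readthrough gene RPL17-C18orf32, which had none. Its values carry the same uncertainty as those of RPS10. RPL17 was measured at 4.20, 5.97, 3.89 and 5.00 CPM in the siGOLM1-1 libraries, 6.11, 6.48, 5.93 and 6.24 CPM in the siGOLM1-2 libraries and 5.98, 6.16, 6.27 and 6.66 CPM in the control libraries. It was called lower with siGOLM1-1 (log2 fold change -0.40 with an SE of 0.13 and adjusted p = 0.0192), a call lost without control replicate 4 (-0.37, adjusted p = 0.0509), without siGOLM1-1 replicate 3 (-0.31, adjusted p = 0.0602) and against controls 1 and 2 alone (-0.35, adjusted p = 0.104). Its neighbour C18orf32, at only 17 to 68 counts per library, rose with siGOLM1-1 (log2 fold change 0.64 with an SE of 0.19 and adjusted p = 0.0145) and fell with siGOLM1-2 (log2 fold change -0.58 with an SE of 0.21 and adjusted p = 0.0346). RPS10, RPL36A, RPL17 and RPL39L were the 4 genes of the 78 with under 1000 counts in any library, and the next lowest count was 1685.

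RPL5 and RPL11 form a particle with 5S rRNA that binds MDM2 when ribosome assembly is disturbed. RPL5 was measured at 649, 822, 649 and 707 CPM in the siGOLM1-1 libraries, 518, 536, 512 and 634 CPM in the siGOLM1-2 libraries and 631, 599, 755 and 734 CPM in the control libraries, and RPL11 at 495, 659, 479 and 525 CPM in the siGOLM1-1 libraries, 528, 543, 494 and 681 CPM in the siGOLM1-2 libraries and 539, 517, 639.9 and 622 CPM in the control libraries. RPL11 overlapped in all 3 groups and was called in no comparison. RPL5 was higher with siGOLM1-1 than with siGOLM1-2 under every alternative run (log2 fold change 0.36 with an SE of 0.11 and adjusted p = 0.01). Its lower level with siGOLM1-2 against control (log2 fold change -0.31 with an SE of 0.11 and adjusted p = 0.0292) was not called without control replicate 3 or 4 or siGOLM1-2 replicate 1, 2 or 3, at adjusted p up to 0.0874, nor against controls 1 and 2 alone (-0.16, adjusted p = 0.298) and with scaling by library totals (-0.23, adjusted p = 0.059).

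RPL22, an RNA-binding protein of the large subunit, was measured at 249.7, 277, 263 and 253 CPM in the siGOLM1-1 libraries, 204, 217, 201 and 252 CPM in the siGOLM1-2 libraries and 211, 211, 236 and 231 CPM in the control libraries. It was called higher with siGOLM1-1 (log2 fold change 0.23 with an SE of 0.08 and adjusted p = 0.0287), and leaving out control replicate 1 or 2 or siGOLM1-1 replicate 2 or 3 ended that call, at adjusted p up to 0.076. It was also lost against controls 3 and 4 alone (0.17, adjusted p = 0.186) and with scaling on the ribosomal protein genes alone (0.20, adjusted p = 0.0946). Its paralog RPL22L1, which lies outside the name rule, changed more. RPL22L1 averaged 52.0 CPM with siGOLM1-1, 24.1 CPM with siGOLM1-2 and 84.0 CPM in the control. It fell with siGOLM1-1 (log2 fold change -0.69 with an SE of 0.08 and adjusted p = 7.01e-06) and with siGOLM1-2 (log2 fold change -1.80 with an SE of 0.08 and adjusted p = 4.70e-09), and the 3 groups did not overlap. RPL13A, a part of the interferon-dependent silencing complex as well as of the large subunit, was measured at 2391, 3242, 2268 and 2638 CPM in the siGOLM1-1 libraries, 2233, 2213, 2169.6 and 2586 CPM in the siGOLM1-2 libraries and 2105, 2044, 2467 and 2477 CPM in the control libraries and was called in no comparison.

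The stalk proteins recruit the translation factors that hydrolyse GTP. RPLP0, their base, was measured at 2864, 3723, 2745 and 2957 CPM in the siGOLM1-1 libraries, 2813, 2822, 2655 and 3296 CPM in the siGOLM1-2 libraries and 2228, 2158, 2656 and 2512 CPM in the control libraries. RPLP1 was measured at 1253, 1801, 1328 and 1507 CPM in the siGOLM1-1 libraries, 1188, 1219, 1155 and 1534 CPM in the siGOLM1-2 libraries and 1001, 1071, 1279.6 and 1295 CPM in the control libraries. RPLP2 was measured at 417, 568, 468 and 555 CPM in the siGOLM1-1 libraries, 422, 442, 398 and 583 CPM in the siGOLM1-2 libraries and 387, 425, 537 and 585 CPM in the control libraries. For RPLP0 every siGOLM1-1 library lay above the controls, and for RPLP1 and RPLP2 the groups overlapped. RPLP0 rose with siGOLM1-1 (log2 fold change 0.36 with an SE of 0.11 and adjusted p = 0.0168), a call lost without siGOLM1-1 replicate 2 (0.26, adjusted p = 0.0536) and against controls 3 and 4 alone (0.26, adjusted p = 0.129). With siGOLM1-2 it missed the threshold (log2 fold change 0.28 with an SE of 0.11 and adjusted p = 0.0587). RPLP1 was called higher with siGOLM1-1 (log2 fold change 0.34 with an SE of 0.13 and adjusted p = 0.0456), but leaving out control replicate 1 or 2, siGOLM1-1 replicate 2 or 4 or siGOLM1-2 replicate 1, 2 or 3 ended that call, at adjusted p up to 0.155. It was also lost against controls 3 and 4 alone (0.20, adjusted p = 0.298), with scaling by library totals (0.29, adjusted p = 0.0568) and in a fit of both groups without siGOLM1-2 (0.34, adjusted p = 0.0582). RPLP2 was called in no comparison. As a share of all ribosomal protein counts, which does not depend on the scaling, RPLP0 held 5.08 ± 0.15% with siGOLM1-1, 5.15 ± 0.08% with siGOLM1-2 and 4.19 ± 0.08% in the control (SD, n = 4 each). Its ranges with siGOLM1-1, 4.91 to 5.22%, and with siGOLM1-2, 5.06 to 5.26%, both lay above the control range, 4.09 to 4.27%.

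Of the other called genes, RPL13 was higher with siGOLM1-1 than in the control (log2 fold change 0.34 with an SE of 0.11 and adjusted p = 0.0241) and RPS7, RPL41 and RPL35A were lower (log2 fold changes -0.33, -0.31 and -0.26). Each of these calls was lost when 1 of several libraries was left out, among them siGOLM1-1 replicate 2 for RPL13 and control replicates 3 and 4 for the other 3 genes. Against controls 3 and 4 alone RPL13 was lost too (0.23, adjusted p = 0.185), and against controls 1 and 2 alone RPS7 (-0.23, adjusted p = 0.173), RPL41 (-0.20, adjusted p = 0.267) and RPL35A (-0.15, adjusted p = 0.334). Between the siRNAs, RPL14, RPL19, RPS9, RPL13 and RPL7 were higher with siGOLM1-1 (log2 fold changes 0.45, 0.34, 0.32, 0.30 and 0.28), and RPL35, RPL41 and RPS25 were lower (log2 fold changes -0.30, -0.30 and -0.30). Of these calls, that of RPL13 was lost without siGOLM1-1 replicate 2 (0.21, adjusted p = 0.126), replicate 4 or siGOLM1-2 replicate 1, 2 or 3, and that of RPS9 without siGOLM1-1 replicate 2 (0.21, adjusted p = 0.0906) or siGOLM1-2 replicate 1, 2 or 3. The call of RPL7 was lost without siGOLM1-2 replicate 3 (0.25, adjusted p = 0.0512). Those of RPL35 and RPL41 were lost without any of several libraries, among them siGOLM1-2 replicate 4 (-0.21, adjusted p = 0.149 for RPL35 and -0.22, adjusted p = 0.135 for RPL41). Scaling by library totals ended the calls of RPL19 (0.21, adjusted p = 0.071), RPL7 (0.15, adjusted p = 0.118), RPS9 (0.19, adjusted p = 0.125) and RPL13 (0.16, adjusted p = 0.185). The call of RPL13 was also lost in a fit of both siRNA groups without the controls (0.27, adjusted p = 0.0574). The calls of RPL14 and RPS25 held in every alternative run. The remaining calls between the siRNAs were RPL39L, RPL22 and RPS27L, higher with siGOLM1-1 (log2 fold changes 0.33, 0.25 and 0.38), and RPL17, RPL39, RPS6 and RPS29, lower with siGOLM1-1 (log2 fold changes -0.38, -0.32, -0.28 and -0.29). Each of these 7 was lost without any 1 of several libraries, among them siGOLM1-2 replicate 3 for RPL39L, RPL22, RPS27L, RPS6 and RPS29, and siGOLM1-1 replicate 1 for RPL17 and RPL39.

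**Figure D3:**
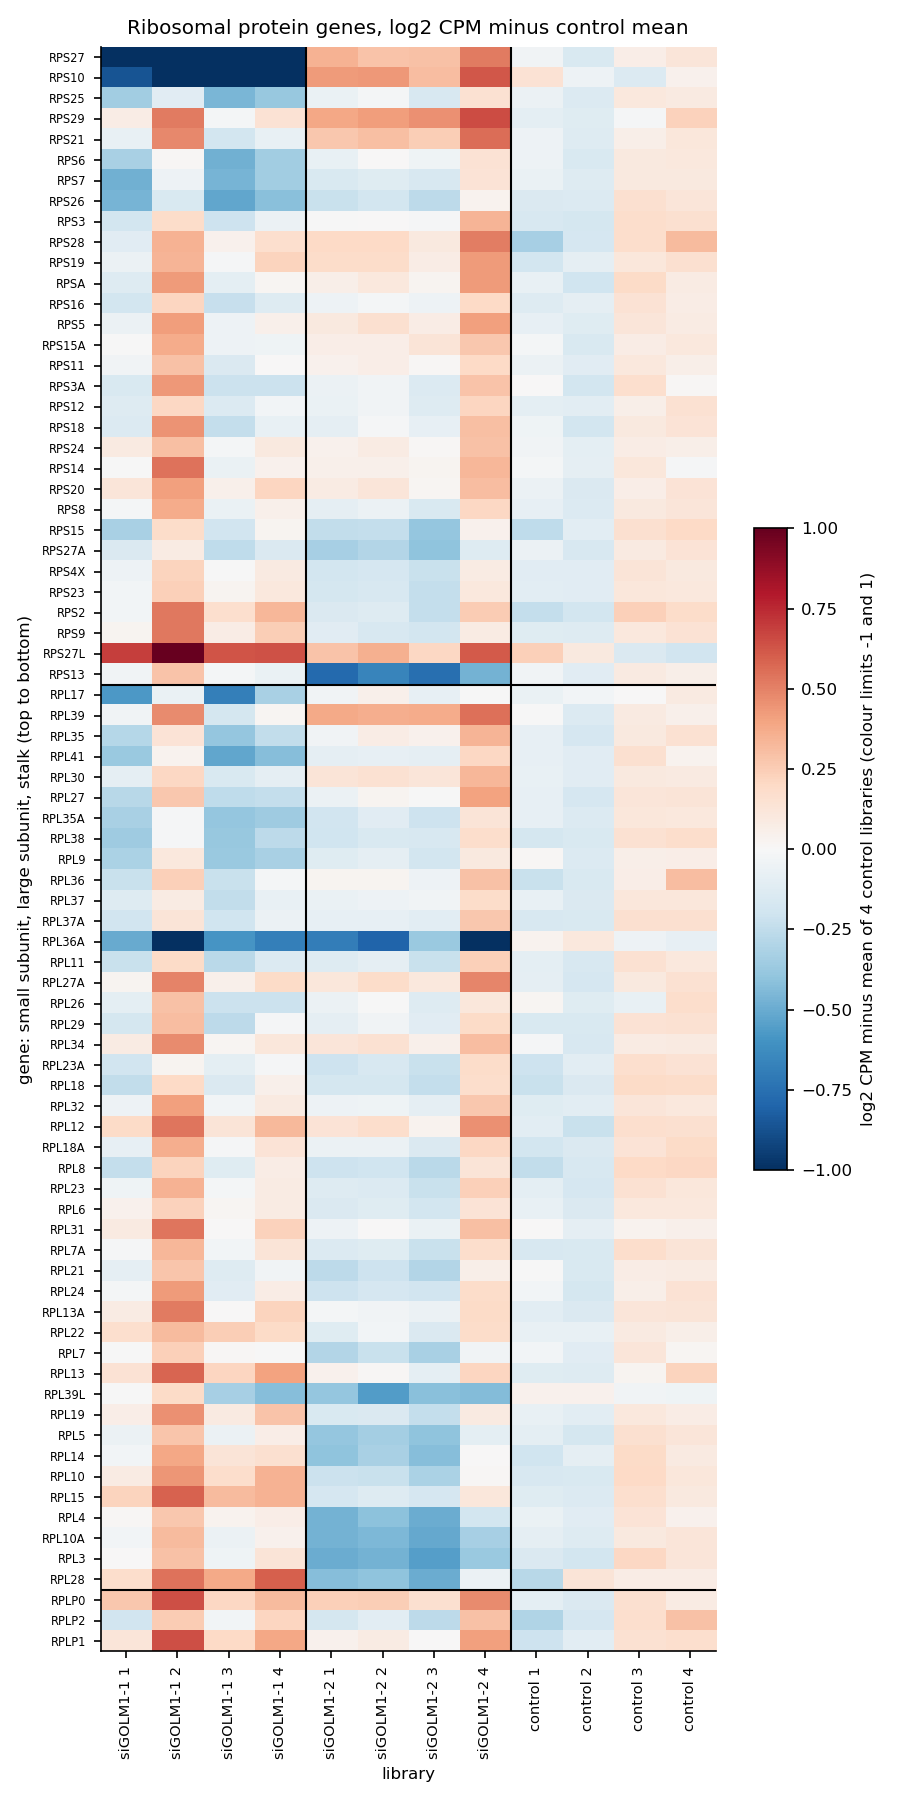
Log2 CPM of each of the 78 genes (rows) in each of the 12 libraries (columns) minus the mean of the 4 control libraries, with small subunit, large subunit and stalk genes separated by lines and sorted within each by the log2 fold change of siGOLM1-1 against siGOLM1-2. Replicate 2 of siGOLM1-1 and replicate 4 of siGOLM1-2 are each the highest library of their group for 75 of the 78 genes, and the darkest blue cells are those of RPS27 and RPS10 with siGOLM1-1 and of RPL36A with both siRNAs.

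Genes with shorter annotated transcripts were lower relative to genes with longer ones with siGOLM1-1, and higher with siGOLM1-2. The 78 genes were split into 3 groups of 26 by transcript length from GENCODE release 29, 359 to 650 bases for the short and 874.5 to 2316.5 bases for the long (medians over a gene's transcripts). Which of a gene's annotated transcripts the cells expressed was not examined, so these lengths may differ from those of the sequenced mRNAs. The mean log2 CPM of the short genes minus that of the long genes was -0.942, -0.931, -1.03 and -0.996 in the siGOLM1-1 libraries, -0.662, -0.660, -0.647 and -0.657 in the siGOLM1-2 libraries and -0.765, -0.796, -0.850 and -0.802 in the control libraries. The 3 groups did not overlap, and this difference does not depend on how libraries are scaled. With RPS27 and RPS10 left out it was -0.585 ± 0.044, -0.399 ± 0.008 and -0.519 ± 0.026 (SD, n = 4 each), and the ranges of siGOLM1-1 and control, -0.635 to -0.533 and -0.554 to -0.492, then overlapped, while siGOLM1-2 stayed above both. Within the large subunit it was -1.09 ± 0.06, -0.732 ± 0.021 and -0.950 ± 0.027, without overlap. Within the small subunit it was -0.694 ± 0.041, -0.461 ± 0.021 and -0.514 ± 0.066, where the ranges of siGOLM1-2 and control overlapped. Across the 78 genes, Pearson's r between the log2 fold change and log2 length was 0.28 with siGOLM1-1 against control, -0.28 with siGOLM1-2 against control and 0.39 with siGOLM1-1 against siGOLM1-2. Genes are not independent replicates, and the first pair of comparisons shares its controls, so these values are descriptions. Over the 17024 genes tested with a length, r was -0.0032, 0.011 and -0.012. In 222 other coding genes as short as the short group, the median log2 fold changes were -0.04, 0.05 and -0.07. Length was examined after other results were seen, and the part of RNA quality or library preparation in this pattern was not tested.

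**Figure D4:**
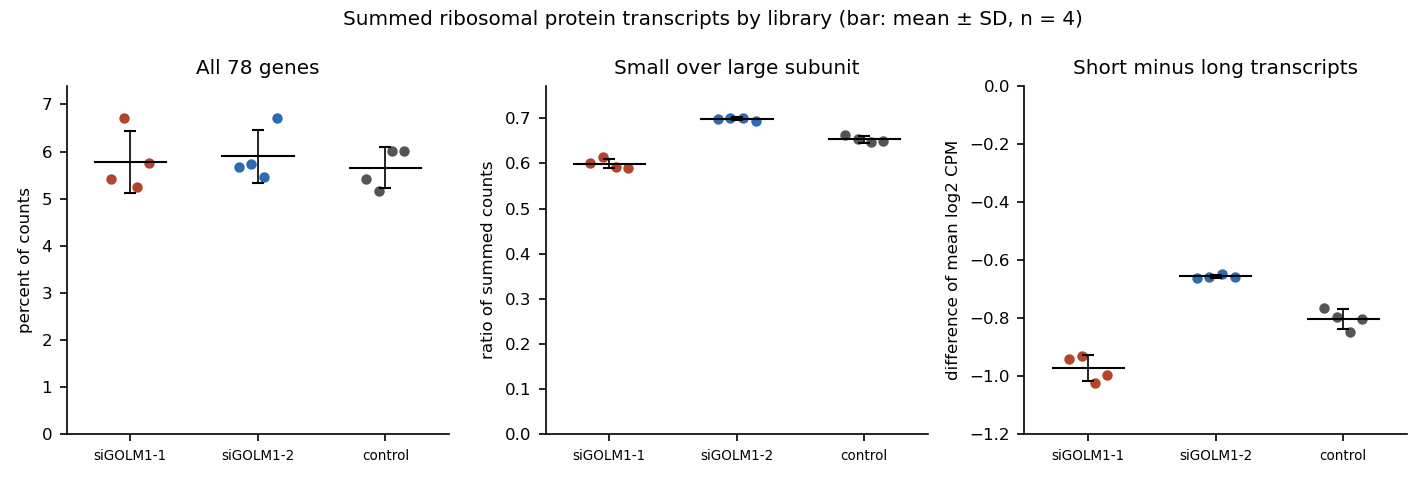
Values in each of the 12 libraries with the mean and SD of each group: the share of counts in the 78 genes (left, percent), the ratio of summed counts of small subunit genes over large subunit and stalk genes together (middle), and the mean log2 CPM of the 26 short minus the 26 long genes (right). The shares overlap between 5.17 and 6.72%, while the ratio is 0.600, 0.699 and 0.653 on average with siGOLM1-1, siGOLM1-2 and control, with no overlap.

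At the start sites, genes with a tract at a listed start and genes without one both held called genes. Of the 46 with a tract, 5 were higher and 7 lower with siGOLM1-1 against control, 4 higher and 4 lower with siGOLM1-2 against control, and 7 higher and 7 lower with siGOLM1-1 against siGOLM1-2. Of the 17 without, 2 were higher and 3 lower, 2 higher and 3 lower, and 6 higher and 2 lower. Of all genes tested, 47.5%, 45.0% and 54.4% were called in these comparisons. The split rests on the listed starts, since 53 of the 63 genes had a tract that began within 5 bases of a listed start. Other motifs were searched on both strands of the 300 bases from 250 before to 50 after the start. CCGGAAG, a core of ETS family sites, stood in 36.5% of the 63 genes and 12.2% of all 27305. ATGGCGG, a core of YY1 sites, stood in 22.2% and 6.66%, and GGGCGG, the GC box, in 58.7% and 48.3%. TATAAA, the TATA box, stood in 7.94% and 14.0%. These are matches of letters, and nothing was measured at the sites.

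Beside the ribosomal proteins, the genes that build ribosomes were counted in the same fit. Of 56 ribosome assembly factors, 3 were higher and 34 lower with siGOLM1-1 against control, 1 higher and 29 lower with siGOLM1-2 against control, and 12 higher and 17 lower with siGOLM1-1 against siGOLM1-2, with median log2 fold changes of -0.30, -0.23 and -0.09. The shares lower were 60.7%, 51.8% and 30.4%, and those of all genes tested 23.8%, 23.2% and 26.5%. Over all settings run, 28 to 38 were lower with siGOLM1-1 and 21 to 33 with siGOLM1-2. Nucleolin (NCL), a chaperone of rRNA precursors, fell to 577 CPM with siGOLM1-1 and 538 CPM with siGOLM1-2, against 808 CPM in the control (log2 fold change -0.49 with an SE of 0.06 and adjusted p = 3.21e-05, and log2 fold change -0.59 with an SE of 0.06 and adjusted p = 8.35e-06). RIOK1, a kinase of small subunit maturation, fell with siGOLM1-1 (log2 fold change -0.47 with an SE of 0.08 and adjusted p = 2.26e-04) and with siGOLM1-2 (log2 fold change -1.54 with an SE of 0.08 and adjusted p = 2.77e-08). TSR2, the chaperone of RPS26, also fell with both (log2 fold change -0.49 with an SE of 0.07 and adjusted p = 9.86e-05, and log2 fold change -0.62 with an SE of 0.07 and adjusted p = 1.65e-05). BOP1, of the complex that matures large subunit rRNA, fell with siGOLM1-1 (log2 fold change -1.04 with an SE of 0.09 and adjusted p = 6.58e-07) and was not called with siGOLM1-2 (log2 fold change -0.21). GRWD1, a chaperone of RPL3, fell with siGOLM1-1 (log2 fold change -0.77 with an SE of 0.06 and adjusted p = 5.41e-07) and was called lower with siGOLM1-2 (log2 fold change -0.19 with an SE of 0.06 and adjusted p = 0.0234), where leaving out control replicate 2 or 3 or siGOLM1-2 replicate 1, 2 or 3 ended the call. EMG1, a methyltransferase of 18S rRNA, fell with siGOLM1-2 (log2 fold change -0.74 with an SE of 0.10 and adjusted p = 4.10e-05). With siGOLM1-1 EMG1 was called higher (log2 fold change 0.26 with an SE of 0.10 and adjusted p = 0.0351), a call lost without siGOLM1-1 replicate 2 (0.18, adjusted p = 0.121) and in 8 other alternatives.

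RNA polymerase I transcribes the rRNA precursor. Of 15 genes of its machinery, 2 were higher and 9 lower with siGOLM1-1 against control, 0 higher and 5 lower with siGOLM1-2 against control, and 4 higher and 3 lower with siGOLM1-1 against siGOLM1-2 (median log2 fold changes -0.27, -0.12 and 0.06). The shares called were 73.3%, 33.3% and 46.7%, and those of all genes tested were 47.5%, 45.0% and 54.4%. POLR1A, the largest subunit, averaged 94.2 CPM with siGOLM1-1, 136 CPM with siGOLM1-2 and 148 CPM in the control. It fell with siGOLM1-1 (log2 fold change -0.65 with an SE of 0.12 and adjusted p = 6.53e-04) and was not called with siGOLM1-2 (log2 fold change -0.12 with an SE of 0.12 and adjusted p = 0.45). UBTF, the upstream binding factor, fell with siGOLM1-2 (log2 fold change -0.57 with an SE of 0.07 and adjusted p = 1.60e-05), as did TAF1D, of the promoter selectivity factor (log2 fold change -0.78 with an SE of 0.06 and adjusted p = 9.05e-07). With siGOLM1-1, UBTF was called lower as well (log2 fold change -0.22 with an SE of 0.07 and adjusted p = 0.0139), and TAF1D was not called (log2 fold change -0.06). TAF1B and POLR1E were called lower with both siRNAs (log2 fold changes -0.52 and -0.45 for TAF1B, and -0.31 and -0.41 for POLR1E).

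Other genes whose mRNAs are known to carry TOP tracts, most of them genes of translation, were mostly higher with siGOLM1-1 and mostly lower with siGOLM1-2. Of 16 tested (17 listed), 11 were higher and 1 lower with siGOLM1-1 against control, 0 higher and 9 lower with siGOLM1-2 against control, and 12 higher and 0 lower with siGOLM1-1 against siGOLM1-2. In these comparisons 12, 9 and 12 of the 16 were called, and the shares of all genes tested were 47.5%, 45.0% and 54.4%. The median log2 fold changes were 0.28, -0.30 and 0.61, and over all settings run they stayed between 0.23 and 0.34, -0.39 and -0.17, and 0.48 and 0.63. In the same comparisons the medians of the 78 ribosomal protein genes were 0.06, -0.02 and 0.03. EEF1A1, the elongation factor that brings aminoacyl-tRNA, averaged 8551 CPM with siGOLM1-1, 4710.1 CPM with siGOLM1-2 and 5813 CPM in the control, and differed between the siRNAs (log2 fold change 0.86 with an SE of 0.10 and adjusted p = 5.80e-06). PABPC1, the cytoplasmic poly(A)-binding protein, rose with siGOLM1-1 (log2 fold change 0.54 with an SE of 0.10 and adjusted p = 6.16e-04) and was not called with siGOLM1-2 (log2 fold change -0.23 with an SE of 0.10 and adjusted p = 0.0848). HNRNPA1, a splicing factor, fell with siGOLM1-2 (log2 fold change -0.74 with an SE of 0.07 and adjusted p = 1.42e-06), as did NAP1L1, a histone chaperone (log2 fold change -0.40 with an SE of 0.09 and adjusted p = 0.00365), and both were called higher with siGOLM1-1 (log2 fold changes 0.28 and 0.52). EIF3E, a subunit of initiation factor 3, was the 1 gene of this list that fell with siGOLM1-1 (log2 fold change -0.52 with an SE of 0.08 and adjusted p = 1.15e-04), and it fell with siGOLM1-2 as well (log2 fold change -0.41 with an SE of 0.08 and adjusted p = 8.00e-04).

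Among 22 regulators of mTOR and of TOP mRNAs, 8 were higher and 5 lower with siGOLM1-1 against control, 6 higher and 2 lower with siGOLM1-2 against control, and 5 higher and 6 lower with siGOLM1-1 against siGOLM1-2. The shares called were 59.1%, 36.4% and 50.0%, and those of all genes tested were 47.5%, 45.0% and 54.4%. SESN2, a leucine sensor that inhibits mTOR complex 1, rose with siGOLM1-1 (log2 fold change 1.25 with an SE of 0.08 and adjusted p = 4.10e-08) and with siGOLM1-2 (log2 fold change 1.11 with an SE of 0.08 and adjusted p = 2.21e-07). DEPTOR, an inhibitor bound to mTOR, rose with both as well (log2 fold change 0.79 with an SE of 0.12 and adjusted p = 1.53e-04, and log2 fold change 0.84 with an SE of 0.12 and adjusted p = 1.06e-04). TSC1, another inhibitor of mTOR complex 1, went the other way with siGOLM1-2 (log2 fold change -0.66 with an SE of 0.10 and adjusted p = 9.93e-05). It was not called with siGOLM1-1 (log2 fold change 0.10). MYC, a transcription factor that drives ribosomal protein genes, fell with siGOLM1-1 (log2 fold change -0.57 with an SE of 0.09 and adjusted p = 1.17e-04) and rose with siGOLM1-2 (log2 fold change 0.33 with an SE of 0.09 and adjusted p = 0.00711), a call lost against controls 1 and 2 alone (0.30, adjusted p = 0.0555) and with scaling on the ribosomal protein genes alone (0.32, adjusted p = 0.0731). MYC was lower with siGOLM1-1 than with siGOLM1-2 (log2 fold change -0.90 with an SE of 0.09 and adjusted p = 1.40e-06). Its partner MAX fell with siGOLM1-1 (log2 fold change -0.39 with an SE of 0.08 and adjusted p = 9.05e-04) and rose with siGOLM1-2 (log2 fold change 0.46 with an SE of 0.08 and adjusted p = 2.75e-04). Of 5 tested genes of the nucleolar stress response (6 listed), 4 were higher and 0 lower with siGOLM1-1 against control, 1 higher and 0 lower with siGOLM1-2 against control, and 2 higher and 1 lower with siGOLM1-1 against siGOLM1-2. In these comparisons 4, 1 and 3 of the 5 were called, beside 47.5%, 45.0% and 54.4% of all genes tested. The counts depended on the setting. Over all settings run, 2 to 5 were higher with siGOLM1-1 against control and 1 to 2 with siGOLM1-2 against control. Between the siRNAs, 2 to 3 were higher and 0 to 1 lower with siGOLM1-1. CDKN1A, the p53 target that arrests the cell cycle, rose with siGOLM1-1 (log2 fold change 0.93 with an SE of 0.07 and adjusted p = 3.86e-07) and was not called with siGOLM1-2 (log2 fold change 0.09 with an SE of 0.07 and adjusted p = 0.351). MDM2, the ubiquitin ligase of p53, rose with siGOLM1-2 (log2 fold change 0.85 with an SE of 0.16 and adjusted p = 8.72e-04) and was not called with siGOLM1-1 (log2 fold change 0.30 with an SE of 0.16 and adjusted p = 0.144). Of 7 ribosomal proteins outside the name rule, 1 was higher and 1 lower with each siRNA, and 3 were higher and 2 lower with siGOLM1-1 against siGOLM1-2. That is 28.6%, 28.6% and 71.4% called, beside 47.5%, 45.0% and 54.4% of all genes tested.

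**Figure D5:**
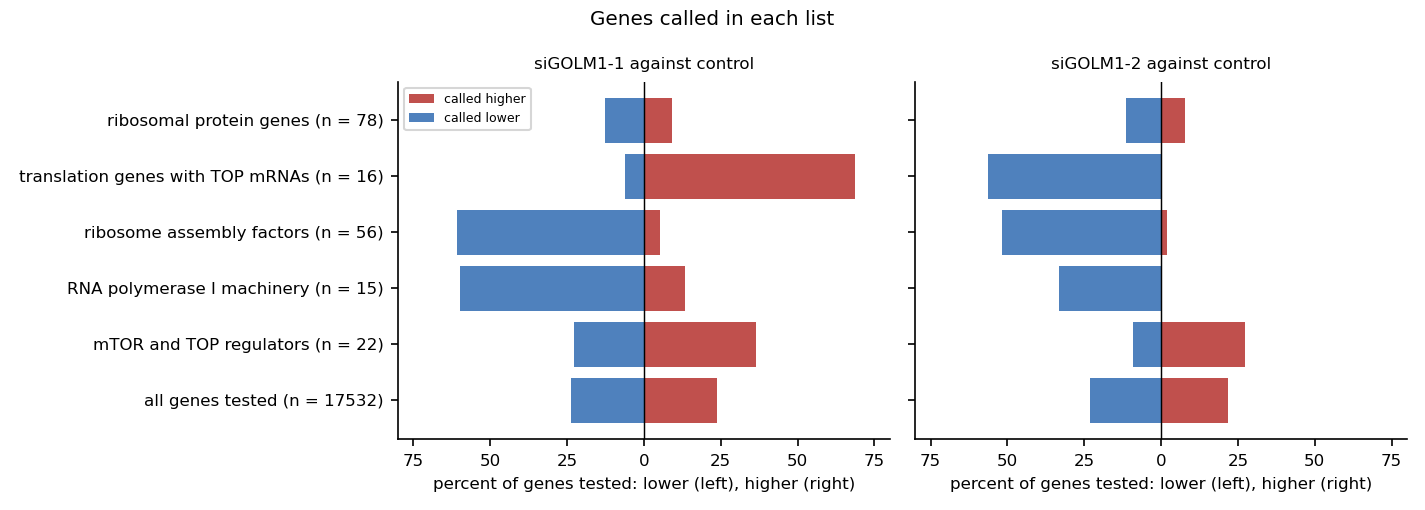
Percent of the tested genes of each list that were called lower (left of 0) and higher (right of 0) with siGOLM1-1 against control (left panel) and siGOLM1-2 against control (right panel), with all genes tested at the bottom. The ribosomal protein genes have 21.8 and 19.2% called. The list labelled translation genes with TOP mRNAs, which also holds genes of other functions, lies mostly to the right with siGOLM1-1 (11 of 16) and to the left with siGOLM1-2 (9 of 16).

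In the authors' deposited tables, 8 of the 78 genes were higher and 8 lower with siGOLM1-1 against control, and 7 higher and 9 lower with siGOLM1-2 against control. The authors' deposited log2 fold changes differed from those given here by at most 0.018 over the 78 genes. Of the genes called here, the authors' deposited tables held 15 of 17 and 15 of 15 with the same call and sign.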

How the data were processed

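Stranded mRNA libraries were sequenced as read pairs, per the labels' protocols. Reads were demultiplexed with bcl2fastq 2.20, aligned with STAR 2.7.3 to hg19 and analysed with DESeq2 1.24.0, as the submitters' processing notes name them. How reads were counted, with which annotation and strand setting, is not given in the sources used here. The authors deposited raw counts per gene, 57773 genes in 12 libraries. The authors' deposited result tables give, per the file headers, for 30028 genes: the mean signal over libraries, log2 fold changes and their errors, the test's score, and each p-value before and after adjustment. They were used only to compare calls and fold changes.

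Differences were computed from the counts with edgeR 4.0.16 in R 4.3.3: filterByExpr (17532 genes kept), TMM factors and 1 robust quasi-likelihood fit of all 12 libraries (9 residual degrees of freedom, common biological coefficient of variation 0.146). Adjusted p-values are Benjamini-Hochberg values over all genes tested. SE and 95% intervals are given on a log2 scale, with 4 libraries in each group. DESeq2 1.42.0 and svaseq in sva 3.50.0 served as alternatives, and the computations were tested on simulated data. The genes, the gene lists and the rule for naming genes were chosen with earlier results of these data known. By that rule, library values are given for up to 6 called genes per direction and comparison whose groups do not overlap, for paralog pairs and for stalk and other well-known proteins; of the other lists, up to 4 genes per comparison with the smallest p could be named. Promoter sequences are from RefSeq (GRCh38.p14), and lengths from GENCODE release 29, matched by gene and without coordinates. Some genes are not reported here.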

Additional observations from a re-analysis of the deposited data

Results flagged for a closer look

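For 27 ribosomal protein genes and the share of their counts, each group of 4 libraries was examined for a library whose gap to its nearest neighbour exceeded Dixon's 95% critical share of the group's range. Of 84 such groups 8 were marked. Chance alone marks about 1 in 20 independent groups, but these groups share the same 12 libraries and are not independent. With siGOLM1-1, replicate 2 stood above the others for RPS13 at 494 CPM, RPS21 at 368 CPM and RPS27L at 395 CPM. With siGOLM1-2, replicate 4 stood above the others for RPL13A at 2586 CPM, RPL15 at 1008 CPM, RPL39 at 349.9 CPM and RPLP1 at 1534 CPM. In the control, replicate 1 stood below the others for RPL28 at 684 CPM.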

How the results depend on the processing

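Other analyses changed the scaling, the tool, the low count filter, the libraries, the samples in the fit or a covariate; scaling on the ribosomal protein genes alone and the alternatives of the count share were added after seeing the data. No called result changed direction. Of 1566 values of the 27 genes with library values, 1426 kept their direction and side of the threshold, 111 lost a call and 29 gained one, and 17 of 44 calls held in every alternative run. For siGOLM1-1 against control, the 7 higher became 20 with 1 surrogate variable, 13 with controls 1 and 2 and 1 with controls 3 and 4, and the 10 lower became 3 with controls 1 and 2. For siGOLM1-2 against control, the 6 higher became 14 with 1 surrogate variable, 3 with controls 3 and 4 and 11 with library totals, and the 9 lower became 5 with controls 1 and 2. For siGOLM1-1 against siGOLM1-2, the 16 higher became 9 with library totals, and the 9 lower became 15 with 1 surrogate variable, 19 with library totals and 17 with scaling on the ribosomal protein genes. The cause was not tested. Library totals put the median of all genes at -0.12 for siGOLM1-1 against siGOLM1-2, and that of the 78 genes at -0.10. Leaving out 1 library gave 3 to 11 higher and 5 to 13 lower (siGOLM1-1 against control), 4 to 6 and 6 to 11 (siGOLM1-2 against control), and 10 to 22 and 3 to 16 (siGOLM1-1 against siGOLM1-2), with medians of -0.03 to 0.11, -0.09 to 0.03 and -0.02 to 0.12. With the replicate number as a block, the counts were 7 higher and 8 lower, 6 and 10, and 16 and 8; the labels do not say that the numbers pair libraries, correlations of same-numbered libraries' deviations ran from -0.20 to 0.35 with 3 of 12 over 0.1, and 4 of 12 libraries lay closest to their own number. Depth limits RPS10, RPL36A and RPL17, with as few as 60, 94 and 192 counts in a library.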
